A study of Mus musculus with 6 samples.

Results

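Cytochrome P450 families 1 and 2 (Cyp1 and Cyp2) were followed in mouse liver as 51 genes out of the 23291 listed in the deposited tables. They were chosen by name alone: every symbol made of Cyp1 or Cyp2, a subfamily letter and a number, apart from 2 symbols with the pseudogene suffix -ps. P450 enzymes are haem proteins of the endoplasmic reticulum that insert oxygen into their substrates with electrons passed on by P450 oxidoreductase. The enzymes of these families oxidise many drugs and environmental chemicals, and also steroids, retinoids and fatty acids. The liver is their main site, with several of them most abundant in the hepatocytes around the central vein, and their genes are known targets of the receptors AhR, CAR and PXR, of liver transcription factors and, for part of the mouse genes, of sex-dependent growth hormone signals.

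The question of the series was how hepatic gene expression differs when thrombin is inhibited during a high fat diet. RNA was sequenced from livers of C57BL/6 mice in 2 groups, both on a high fat (Western) diet for 3 months. The diet group received that diet alone, and the dabigatran group received it with 10 mg of dabigatran etexilate, the oral prodrug of a direct thrombin inhibitor, per gram of food. The labels give neither the age nor the sex of the mice, and every value below is a difference within mice on the Western diet. Of the dabigatran tables, replicates 0 and 1 held the same value for every gene, so the pair was counted once and is called dabigatran replicate 1. This left 3 diet libraries and 2 dabigatran libraries. The design text speaks of mice, and nothing else in the labels says that replicates are separate animals, so the tests measure only the spread between these libraries.

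Values are FPKM, fragments per kilobase of gene scaled by the library's total. Each library had 10006 to 10399 genes at 1 FPKM or more. With diet replicate 0 set to 1, the depths of the other libraries were 0.761 to 0.967, lowest in diet replicate 1. All 10 hepatocyte markers were detected, with albumin (Alb) between 18532 and 27246 FPKM. Diet replicate 1 stood apart from the other diet libraries. Across tested genes its log2 values had correlations of 0.954 and 0.952 with diet replicates 0 and 2. With dabigatran replicates 1 and 2 they had 0.955 and 0.930. Diet replicates 0 and 2 had 0.974 between them, and the dabigatran libraries 0.949. Results that rest on diet replicate 1, or on 1 of the dabigatran libraries, are given with and without it. In bulk liver, fewer cells of a type and less RNA per cell cannot be told apart.

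The families together held about the same part of the liver transcriptome in both groups. The summed FPKM of all 51 genes was 9243, 9327 and 10515 in diet replicates 0, 1 and 2, and 8921 and 10830 in dabigatran replicates 1 and 2. As a share of all FPKM this was 1.97% to 2.33%, with overlapping groups. Cyp2e1, which oxidises ethanol, acetone and small toxicants such as paracetamol, made up 55.3% to 63.6% of the sum in each library. Behind it came Cyp2d9, a steroid 16-alpha-hydroxylase known as a male-biased gene, at a mean of 753 FPKM over the 5 libraries, then Cyp2f2 (379), Cyp2c50 (347), Cyp2d26 (319) and Cyp2a12 (301). The plot of the levels in each library shows that the tested genes spanned more than 3 orders of magnitude, and that most of the abundant ones lay close together in all libraries.

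**Figure D1:**
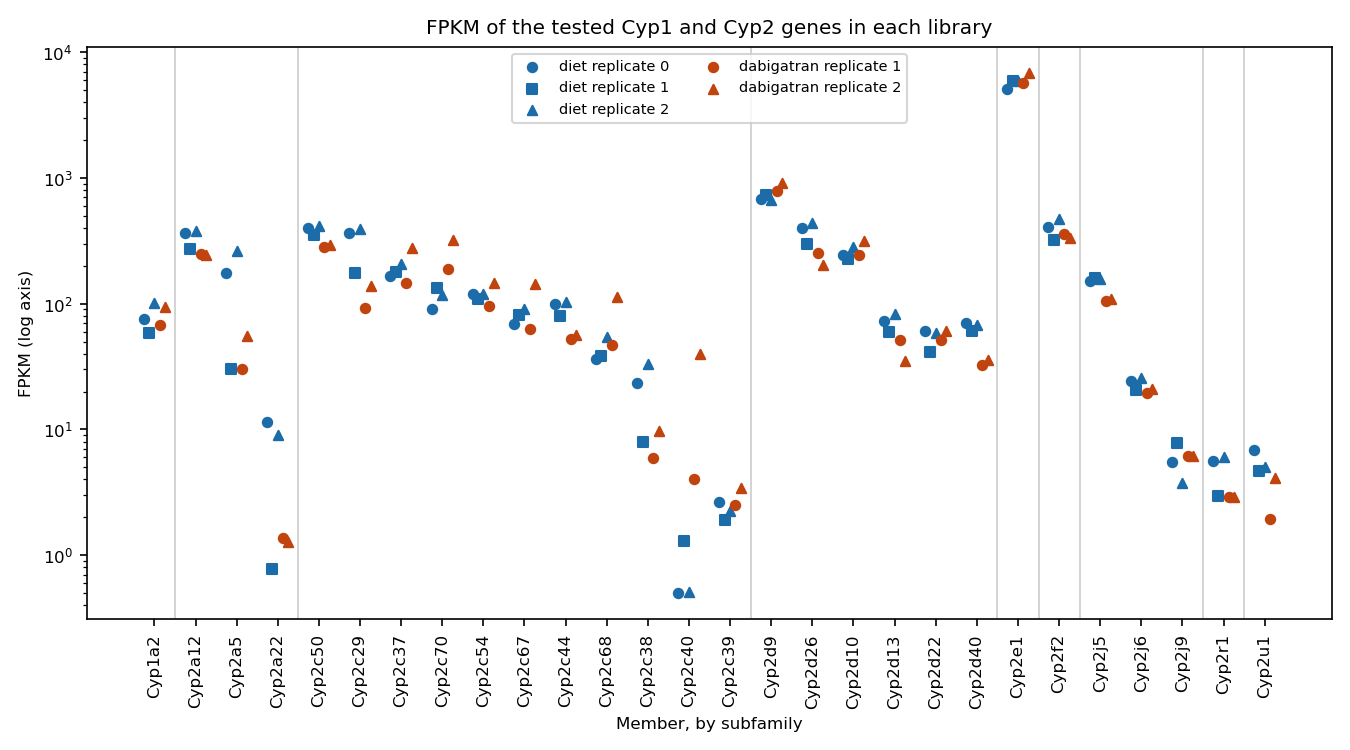
FPKM of the 28 tested Cyp1 and Cyp2 genes (log axis), ordered by subfamily and then by mean level; blue points are the diet libraries and orange points the dabigatran libraries. Cyp2e1 lies between 5115 and 6841 FPKM, and the widest spreads are in Cyp2a5, Cyp2a22, Cyp2c38 and Cyp2c40.

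Of the 51 genes, 28 reached 1 FPKM in 3 or more of the 5 libraries and were tested. A further 11 were listed at 0 in every library, and the other 12 had low or isolated values, up to 20.6 FPKM for Cyp2c69 in dabigatran replicate 2. At an adjusted p under 0.05 in limma, no member was called in either direction, while 44 of all 10247 tested genes were (0.429%), 13 higher (0.127%) and 31 lower (0.303%). After quantile normalization that split was 11 higher and 16 lower. The lowest adjusted p of a member was 0.0674, for Cyp2d40. At an unadjusted p under 0.05 there were 11 members, or 39.3% of those tested beside 16.0% of all tested genes. Of these, 2 were higher (7.14%, beside 6.87% of all) and 9 lower (32.1%, beside 9.13%). With 3 against 2 libraries the same test recovered 14.3% of simulated 2-fold and 76.2% of simulated 4-fold changes over 10247 genes. The simulated errors were independent and drawn from the spread that limma fitted. Under that model, differences of about 2-fold were mostly not detectable.

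Both dabigatran libraries lay below all diet libraries for 10 of the 28 tested members (35.7%), beside 17.2% of all tested genes. Both lay above all diet libraries for 3 (10.7%), again beside 17.2%. The median log2 difference, dabigatran minus diet, was -0.21 for the tested members and 0.02 for all tested genes, with 13 members above 0 and 15 below. The median size of the difference without its sign was 0.49 for the members and 0.28 for all tested genes. These are descriptions of the list, whose members were counted only where they passed the filter on low values.

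**Figure D2:**
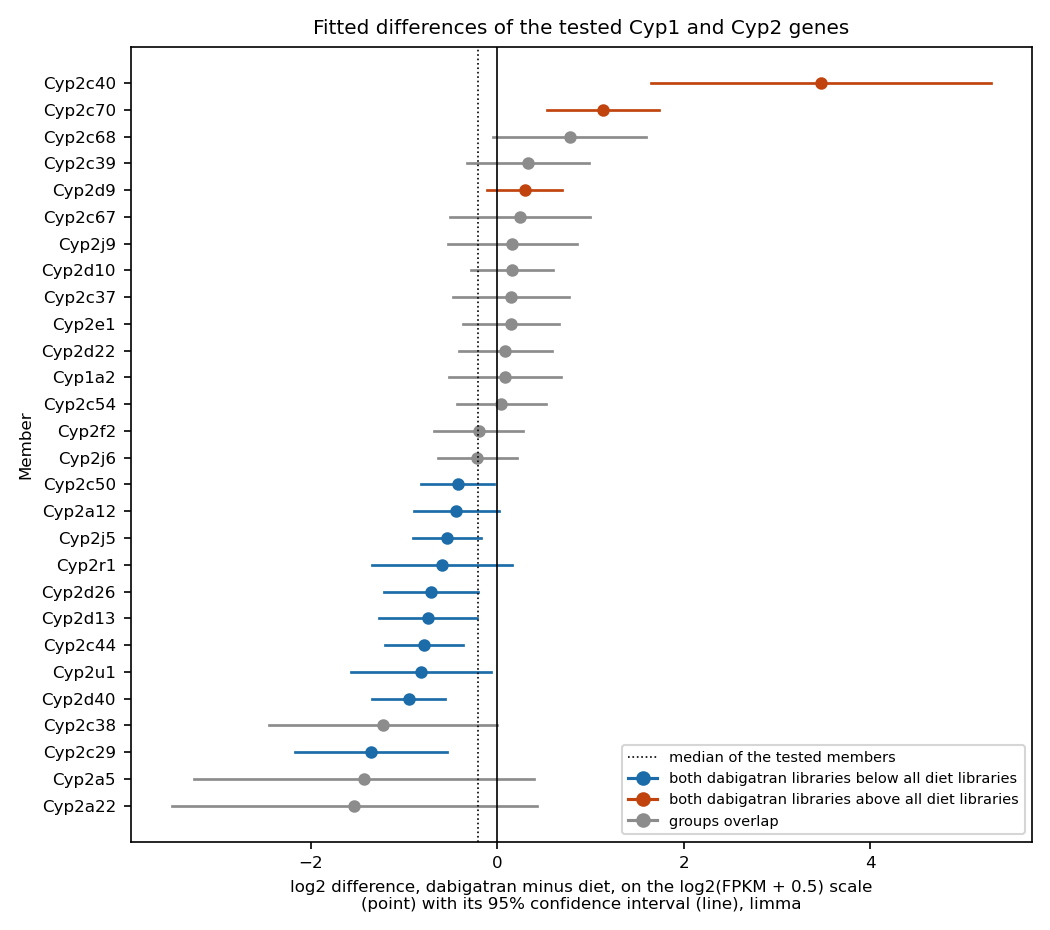
Fitted log2 differences (dabigatran minus diet, on the log2(FPKM + 0.5) scale) of the 28 tested genes with 95% confidence intervals from limma; colour marks whether the libraries of the groups overlap. The values run from -1.54 for Cyp2a22 to 3.47 for Cyp2c40, and the dotted line marks the median of -0.21.

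Diet replicate 1 was the lowest diet library for 19 of the 28 tested members (67.9%), beside 38.1% of all tested genes, and the highest for 5 (17.9%, beside 38.4%). The median member lay 0.19 below its diet mean on the log2 scale in that library, above it by 0.05 and 0.17 in diet replicates 0 and 2, and below it by 0.33 and 0.21 in dabigatran replicates 1 and 2. Without diet replicate 1, 6 members were called lower: Cyp2a22, Cyp2a5, Cyp2c29, Cyp2c38, Cyp2c44 and Cyp2d40. Of all tested genes, 1.94% were then called lower and 0.927% higher. Leaving out diet replicate 0 or diet replicate 2 instead gave no called member, with a lowest adjusted p of 0.276 and 0.265. Without dabigatran replicate 1, 2 members were called higher, Cyp2c40 and Cyp2c70, beside 0.917% of all tested genes, with the lone dabigatran library assumed to vary like the others.

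The Cyp1 family, whose genes are the classical targets of the aryl hydrocarbon receptor, showed no difference beyond the spread of the libraries. Cyp1a2, a constitutive liver enzyme that demethylates caffeine, had 75.0, 58.2 and 101 FPKM in diet replicates 0, 1 and 2, and 67.8 and 94.97 in dabigatran replicates 1 and 2. The groups overlapped fully, and the log2 difference was 0.08 (95% interval -0.52 to 0.68, adjusted p = 0.914). Its sign turned without diet replicate 1 (-0.11) and without dabigatran replicate 2 (-0.16). Cyp1a1, the strongly inducible member, was listed at 0 in 4 libraries and at 0.169 FPKM in diet replicate 2. Cyp1b1, which acts mostly outside hepatocytes, lay between 0.208 and 0.526 FPKM, with overlapping groups. Neither passed the filter on low values.

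All 3 tested Cyp2a genes lay lower with dabigatran, and diet replicate 1 lay with the dabigatran libraries in Cyp2a5 and Cyp2a22. Cyp2a5, the coumarin 7-hydroxylase that also oxidises bilirubin and nicotine, had 174, 30.3 and 264 FPKM in diet replicates 0, 1 and 2, and 30.2 and 55.6 in dabigatran replicates 1 and 2. Diet replicates 0 and 2 were far above the other 3 libraries, and diet replicate 1 was as low as dabigatran replicate 1. The log2 difference was -1.44 (SE 0.79, adjusted p = 0.417). Without diet replicate 1 it was -2.37 with an adjusted p of 0.0145, and without diet replicate 2 it was -0.82 (adjusted p = 0.715). Cyp2a22 repeated the pattern at a lower level, with 11.5, 0.771 and 9.10 FPKM in the diet libraries and 1.37 and 1.27 in the dabigatran libraries. Its log2 difference was -1.54 (adjusted p = 0.418), -2.57 without diet replicate 1 (adjusted p = 0.00735) and -0.94 without diet replicate 0 (adjusted p = 0.735). In fragments, given as the smallest set of whole numbers with the ratio of the values, Cyp2a22 rested on 59, 3 and 45 in the diet libraries and 6 and 5 in the dabigatran libraries.

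Cyp2a12, a steroid 7-alpha-hydroxylase and the most abundant of the subfamily, varied less. It had 362, 271 and 380 FPKM with diet and 250 and 242 with dabigatran. Both dabigatran libraries were below the diet libraries, though close to diet replicate 1, and the log2 difference was -0.44 (SE 0.20, adjusted p = 0.326). Cyp2a12 supplied 58.2% and 66.1% of the Cyp2a sum in diet replicates 2 and 0, and 81.0% to 89.7% in the other 3 libraries. Cyp2a4, a testosterone 15-alpha-hydroxylase and female-biased in mouse liver, was listed at 0 in all libraries.

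That 0 has to be read beside the sequence of its neighbour. Cyp2a4 (chr7:26307169-26315088, plus strand, GRCm38) and Cyp2a5 (chr7:26835305-26843548, plus strand) differ at 23 of 1482 coding bases, and 38.8% of the 50-base windows of Cyp2a4 transcripts occur in another gene, nearly all in Cyp2a5. A stretch of their exon 2 shows how little separates them, with the differing bases in capitals, as read from GENCODE M21 transcripts of GRCm38.
Cyp2a4, chr7:26307666-26307725: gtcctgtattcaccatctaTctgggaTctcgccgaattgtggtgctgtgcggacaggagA
Cyp2a5, chr7:26835811-26835870: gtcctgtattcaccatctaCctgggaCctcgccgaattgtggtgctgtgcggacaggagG
How the authors' pipeline assigned fragments that match both genes is not given in the sources used here, so the values of this pair are uncertain. The sum over the subfamily was 547, 302 and 653 FPKM with diet and 281 and 299 with dabigatran. Both dabigatran libraries were below all diet libraries, with diet replicate 1 next to them. The log2 ratio of the group means was -0.79, and -1.05 without diet replicate 1. Cyp2a12 and Cyp2a22 likewise share 20.1% and 20.2% of their windows, with each other.

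The Cyp2b subfamily was close to absent. Its best known member, Cyp2b10, is the standard target gene of CAR, and it had 0.949, 0 and 0.981 FPKM with diet and 0.277 and 0.307 with dabigatran. These values stand for 4, 0, 4, 1 and 1 fragments. Cyp2b9, a female-biased gene, was listed at 1.18, 0 and 1.96 FPKM in the diet libraries and at 0 in both dabigatran libraries. Cyp2b13, Cyp2b19 and Cyp2b23 were listed at 0 throughout. None of the 5 genes could be tested, and no fold is given.

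The 15 Cyp2c genes, which oxidise arachidonic acid, retinoids and many drugs, differed most among themselves. Of the 11 tested, 7 lay higher and 4 lower. Wholly above the diet libraries lay 2 and wholly below 3, beside 17.2% of all tested genes each way. Cyp2c65 and Cyp2c66 were listed at 0 everywhere. The summed FPKM of all 15 was 1371, 1157 and 1532 with diet and 984 and 1560 with dabigatran. The sums thus overlapped, although single genes lay apart in opposite directions.

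The genes that lay lower were Cyp2c29, Cyp2c38, Cyp2c44 and Cyp2c50. Cyp2c29, an abundant epoxygenase (chr19:39269405-39330713, plus strand, GRCm38), had 364, 176 and 390 FPKM in diet replicates 0, 1 and 2, and 92.5 and 140 in dabigatran replicates 1 and 2. Both dabigatran libraries were below every diet library, and diet replicate 1 lay between them and the other diet libraries. It was 2.56-fold lower on the fitted scale (log2 difference -1.36, SE 0.36, adjusted p = 0.132), and without diet replicate 1 the log2 difference was -1.72 (adjusted p = 0.0128). Cyp2c29 was not called without diet replicate 0 or diet replicate 2. Its share of the Cyp2c sum was 26.5%, 15.2% and 25.4% with diet and 9.40% and 8.95% with dabigatran. Few of its windows, 4.25%, occur in another gene. Its neighbour Cyp2c38, an arachidonic acid oxidase, had 23.3, 7.98 and 33.3 FPKM with diet against 5.88 and 9.79 with dabigatran. Here diet replicate 1 lay between the dabigatran libraries, so the groups overlapped, with a log2 difference of -1.23 (adjusted p = 0.309). It was -1.81 without diet replicate 1 (adjusted p = 0.0252) and -0.81 without diet replicate 2 (adjusted p = 0.595).

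Cyp2c44, which makes epoxyeicosatrienoic acids and is named Cyp2c23 in GENCODE (chr19:44005022-44029208, minus strand), gave a tighter picture. It had 100, 80.3 and 104 FPKM with diet and 52.7 and 56.1 with dabigatran, with no overlap. The log2 difference was -0.79 (SE 0.18, 1.73-fold lower, adjusted p = 0.101), and -0.90 without diet replicate 1 (adjusted p = 0.0338). Leaving out diet replicate 0 or diet replicate 2 gave no call for Cyp2c44. None of its windows occur in another gene. Cyp2c50, another epoxygenase, had 400, 350 and 413 FPKM with diet and 282 and 292 with dabigatran. It too did not overlap, with a log2 difference of -0.43 (adjusted p = 0.272).

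Higher with dabigatran, without overlap, were Cyp2c70 and Cyp2c40. Cyp2c70 hydroxylates bile acids at the 6-beta position to make the muricholic acids typical of mice (chr19:40153353-40187333, minus strand). It had 90.7, 133 and 116 FPKM with diet and 190 and 318 with dabigatran. Both dabigatran libraries were above every diet library, and diet replicate 1 was the highest of the diet group. The fitted fold was 2.19 (log2 difference 1.13, SE 0.26, adjusted p = 0.101). It was called without dabigatran replicate 1 (1.503, adjusted p = 0.0381) and had 0.76 without dabigatran replicate 2 (adjusted p = 0.407). None of its windows occur in another gene. Its share of the Cyp2c sum was 6.62% to 11.5% with diet and 19.3% and 20.4% with dabigatran.

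Cyp2c40, a 16-hydroxylase of arachidonic acid and female-biased in mouse liver (chr19:39767071-39812814, minus strand), had the largest fitted difference of the tested members. It had 0.496, 1.302 and 0.512 FPKM with diet, 4.05 in dabigatran replicate 1 and 39.8 in dabigatran replicate 2. The dabigatran libraries were both above the diet libraries, and the second of them had 9.83 times the value of the first. The log2 difference was 3.47 (SE 0.79, adjusted p = 0.0978), 1.90 without dabigatran replicate 2 (adjusted p = 0.306) and 5.04 without dabigatran replicate 1 (adjusted p = 0.00583). In the smallest whole numbers with the ratio of the values, the diet values stood for 1, 2 and 1 fragments and the dabigatran values for 7 and 62. Per unit of depth, dabigatran replicate 1 had 5.57 times the diet libraries together (exact Clopper-Pearson 95% interval 1.42 to 25.9) and dabigatran replicate 2 had 54.7 times (20.3 to 207). These intervals cover counting error only, and the fragment numbers are the smallest that fit the ratios. Cyp2c69, the next gene along the chromosome, named here after its values were seen, was listed at 0, 0 and 0.784 FPKM with diet and at 1.18 and 20.6 with dabigatran. That is 0, 0 and 3 fragments against 4 and 63, and the ratio per depth was 4.24 (0.718 to 29.0) for dabigatran replicate 1 and 74.2 (24.3 to 369) for dabigatran replicate 2. It did not pass the filter. In diet replicate 2, 1 fragment of Cyp2c40 stood for 0.512 FPKM, while 3 fragments of Cyp2c69 stood for 0.784 FPKM. The coding sequence of Cyp2c40 is the longer one in GENCODE (1560 against 1473 bases). The true fragment numbers of Cyp2c40 may thus be larger than the smallest set, and its intervals would then be narrower.

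These belong to a block of 4 adjacent minus-strand genes in the order Cyp2c67, Cyp2c68, Cyp2c40 and Cyp2c69. Cyp2c67 had 69.0, 81.3 and 90.2 FPKM with diet and 62.4 and 143 with dabigatran, and Cyp2c68 had 36.4, 38.2 and 54.1 against 46.9 and 113. In all 4 genes dabigatran replicate 2 was the highest library, while dabigatran replicate 1 was within or near the diet values except in Cyp2c40. Cyp2c69 had 4 fragments in dabigatran replicate 1 and 3 in diet replicate 2. The log2 difference was 0.24 for Cyp2c67 (adjusted p = 0.756; -0.35 without dabigatran replicate 2) and 0.78 for Cyp2c68 (adjusted p = 0.335; 0.15 without dabigatran replicate 2 and 1.40 without dabigatran replicate 1). The block summed to 106, 121 and 146 FPKM with diet, 115 in dabigatran replicate 1 and 316 in dabigatran replicate 2. The other 11 Cyp2c genes summed to 1265, 1036 and 1387 FPKM with diet and to 870 and 1244 with dabigatran.

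**Figure D3:**
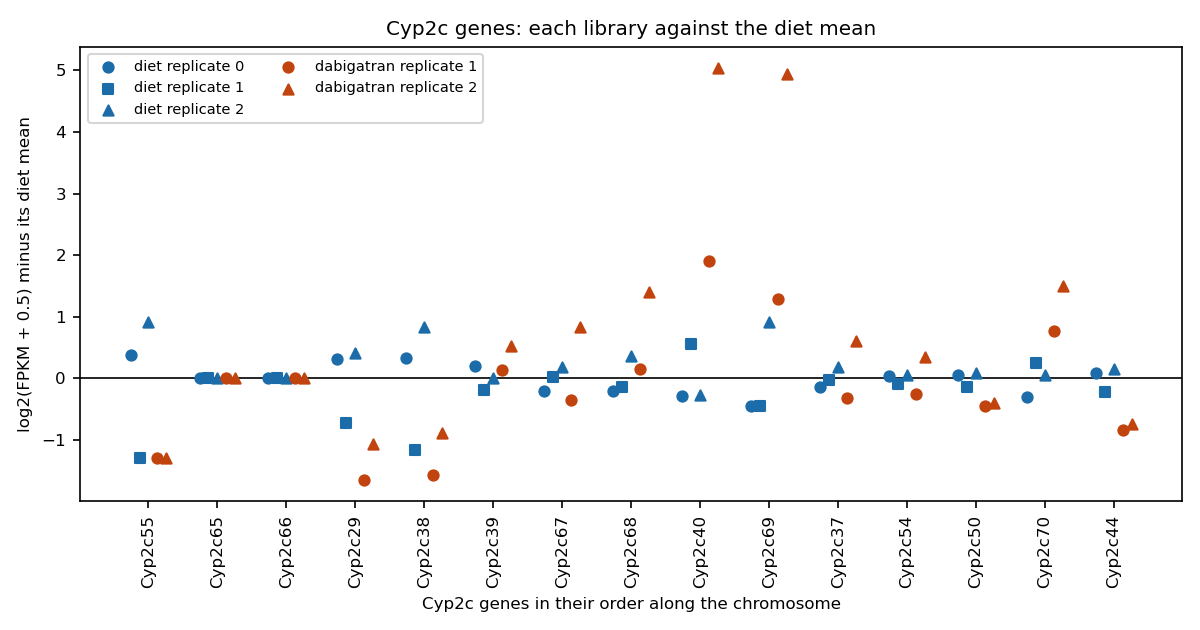
log2(FPKM + 0.5) of each of the 15 Cyp2c genes in each library minus the gene's diet mean, in the order of the genes along the chromosome. Dabigatran replicate 2 (orange triangles) lies highest from Cyp2c39 to Cyp2c54 and in Cyp2c70. Both dabigatran libraries lie below the diet mean in Cyp2c29, Cyp2c38, Cyp2c50 and Cyp2c44. They also do so in Cyp2c55, which was not tested and was listed at 1.11, 0 and 1.83 FPKM with diet and at 0 in both dabigatran libraries.

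The genes of the block are near copies, which bears on how far each single value can be trusted. Of the 50-base windows of Cyp2c40, 60.3% occur in another gene, and the shares were 54.3% for Cyp2c69, 52.8% for Cyp2c67 and 43.3% for Cyp2c68. Cyp2c67 and Cyp2c68 differ at 42 of 1473 coding bases, and Cyp2c67 and Cyp2c69 at 34. Cyp2c40 and Cyp2c69 differ by 31 substitutions and 87 gap bases in the GENCODE models. A stretch of exon 7 shows bases that separate Cyp2c40 from Cyp2c69, and Cyp2c67 from Cyp2c68. Capitals mark the bases that differ within each of these pairs (GRCm38, minus strand). From gaggtcca on, the Cyp2c40 stretch is identical to that of Cyp2c68, so these bases do not separate Cyp2c40 from Cyp2c68. Of the Cyp2c68 windows, 35.6% occur in Cyp2c40.
Cyp2c40, chr19:39777967-39778026: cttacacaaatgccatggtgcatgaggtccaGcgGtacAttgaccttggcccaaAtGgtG
Cyp2c69, chr19:39851082-39851141: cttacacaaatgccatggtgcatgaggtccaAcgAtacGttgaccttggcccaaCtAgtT
Cyp2c67, chr19:39617332-39617391: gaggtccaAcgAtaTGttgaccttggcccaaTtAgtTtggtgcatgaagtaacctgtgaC
Cyp2c68, chr19:39703359-39703418: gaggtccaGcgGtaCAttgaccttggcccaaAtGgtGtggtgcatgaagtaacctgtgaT

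Their promoters, taken as the 250 bases before the RefSeq start on GRCm38.p6, are related but lie at different places along the shared sequence. Over the aligned bases, gaps counted as differences, those of Cyp2c69 and Cyp2c68 were 91.3% identical, those of Cyp2c40 and Cyp2c69 77.5% and those of Cyp2c40 and Cyp2c68 73.1%. That of Cyp2c67 was 47.9% identical with Cyp2c40, 62% with Cyp2c69 and 63.1% with Cyp2c68. The promoters are shown because these genes were highest together in dabigatran replicate 2. In that library 11 of the 28 tested members and 29.0% of all tested genes had their highest value. The motifs searched, chosen with the values known, were GCGTG (the core of the AhR element), AGGTCA (the core word of nuclear receptor sites), TTATGTAA and TTACGTAA (the D-box of Dbp and its relatives) and GTTAAT (part of the HNF1 site), on both strands. Capitals mark every match, and sequences read 5′ to 3′ on the minus strand.
Cyp2c67, chr19:39649043-39649292: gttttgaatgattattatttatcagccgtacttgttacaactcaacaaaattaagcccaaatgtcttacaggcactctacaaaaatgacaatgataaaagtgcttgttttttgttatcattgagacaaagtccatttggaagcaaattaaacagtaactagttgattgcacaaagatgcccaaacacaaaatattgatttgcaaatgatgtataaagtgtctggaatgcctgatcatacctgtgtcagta
Cyp2c68, chr19:39741102-39741351: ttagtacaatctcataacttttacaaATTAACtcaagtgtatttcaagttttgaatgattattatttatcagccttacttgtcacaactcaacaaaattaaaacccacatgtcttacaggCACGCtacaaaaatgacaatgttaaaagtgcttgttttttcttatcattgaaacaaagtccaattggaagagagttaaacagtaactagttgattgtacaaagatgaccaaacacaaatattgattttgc
Cyp2c40, chr19:39812815-39813064: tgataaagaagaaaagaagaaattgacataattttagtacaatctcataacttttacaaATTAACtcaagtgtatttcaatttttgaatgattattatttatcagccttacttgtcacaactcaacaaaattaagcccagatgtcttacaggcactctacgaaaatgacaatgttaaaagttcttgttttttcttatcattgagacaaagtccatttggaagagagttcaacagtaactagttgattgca
Cyp2c69, chr19:39886770-39887019: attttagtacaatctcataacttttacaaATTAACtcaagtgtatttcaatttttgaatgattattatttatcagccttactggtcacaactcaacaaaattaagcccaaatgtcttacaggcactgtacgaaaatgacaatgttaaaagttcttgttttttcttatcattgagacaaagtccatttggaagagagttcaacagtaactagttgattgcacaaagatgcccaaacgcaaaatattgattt
ATTAAC, the reverse complement of GTTAAT, was in the promoters of Cyp2c68, Cyp2c40 and Cyp2c69. The 250 bases of Cyp2c67 begin past the matching stretch of Cyp2c68, so that stretch was not searched in Cyp2c67. CACGC, the reverse complement of GCGTG, was in the promoter of Cyp2c68. Among the 43 members with a RefSeq promoter, 6 held GTTAAT on either strand (14%), beside 6.43% of all 32851 promoters. The other 3 were Cyp2a4, Cyp2a5 and Cyp2d26. These 6 are not independent, as the block genes share the stretch and the Cyp2a4 and Cyp2a5 promoters are 97.6% identical. Members were counted per gene, with any of its promoters, while the share of all is per promoter. AGGTCA was in 10 (23.3%, beside 14%), among them Cyp2c29, Cyp2c70 and Cyp2j5, and GCGTG in 8 (18.6%, beside 28.2%), among them Cyp1a1. No member promoter held either D-box word, which 0.819% and 0.113% of all promoters hold. A match is a description of the letters only.

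The Cyp2d subfamily, relatives of the human enzyme that metabolises many antidepressants and opioids, had overlapping sums in the groups, while some of its genes lay apart. The sum was 1529, 1412 and 1597 FPKM with diet and 1421 and 1558 with dabigatran, with full overlap. Cyp2d40 (chr15:82759833-82764183, minus strand) had 70.3, 60.4 and 68.1 FPKM with diet and 32.5 and 35.5 with dabigatran. The groups were well apart, and diet replicate 1 stood with its group. This was the member nearest to a call, 1.93-fold lower on the fitted scale (log2 difference -0.95, SE 0.17, adjusted p = 0.0674), with an adjusted p of 0.0252 without diet replicate 1. It was not called without diet replicate 0 or without diet replicate 2, where the lowest adjusted p of any member was 0.276 and 0.265.

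Cyp2d26, the second most abundant of the subfamily, had 401, 297 and 441 FPKM with diet and 254 and 204 with dabigatran, a log2 difference of -0.71 (adjusted p = 0.181). Cyp2d13, a transcribed pseudogene in RefSeq, had 73.0, 59.9 and 82.3 against 51.2 and 34.8, a log2 difference of -0.74 (adjusted p = 0.175). Neither overlapped between groups. In the other direction Cyp2d9 had 681, 726 and 664 FPKM with diet and 785 and 908 with dabigatran, also without overlap, and its log2 difference was 0.29 (SE 0.18, adjusted p = 0.456). Cyp2d10 and Cyp2d22 overlapped, at 0.15 and 0.08, and turned sign without dabigatran replicate 2. Cyp2d11, Cyp2d12 and Cyp2d34 were at 0.571 FPKM or below in every library. Cyp2d10 and Cyp2d11 share 35.8% and 37.2% of their windows with other genes, so their separate values are uncertain.

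**Figure D4:**
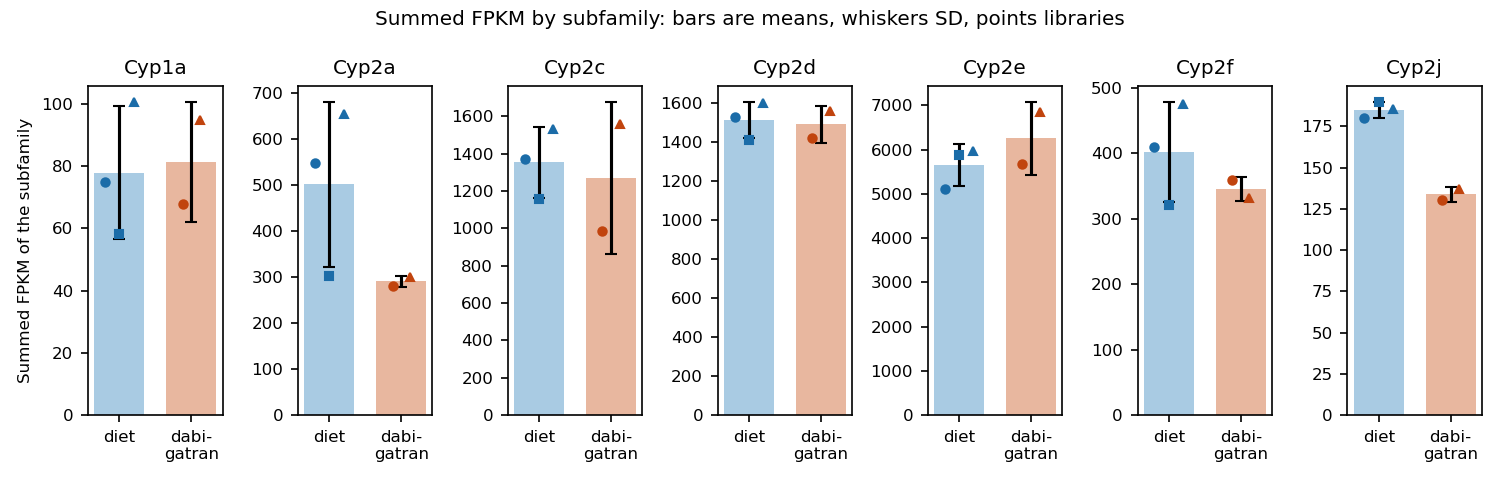
Summed FPKM of 7 subfamilies; bars are group means (3 diet and 2 dabigatran libraries), whiskers are SD and points are libraries. Only the Cyp2a and Cyp2j sums do not overlap between groups, and the low Cyp2a point of the diet group is diet replicate 1.

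Cyp2e1 and Cyp2f2, each the only gene of its subfamily, are known for opposite places in the liver lobule, Cyp2e1 around the central vein and Cyp2f2 around the portal vein. Cyp2e1 had 5115, 5879 and 5957 FPKM with diet and 5672 and 6841 with dabigatran, with overlap and a log2 difference of 0.14 (95% interval -0.37 to 0.66, adjusted p = 0.794), which was -0.050 after quantile normalization. Cyp2f2, which bioactivates naphthalene, had 409, 321 and 474 against 358 and 332, with a log2 difference of -0.20 (95% interval -0.68 to 0.27, adjusted p = 0.669). Of the non-Cyp genes of the central zone, 0 of 14 tested were called, with a median of -0.12, and glutamine synthetase (Glul) had -0.15. Of 13 portal-zone genes, 2 were called higher, the serine dehydratases Sds and Sdsl, and the median was 0.95.

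Of the 3 tested Cyp2j genes, epoxygenases of arachidonic acid, 1 did not overlap between the groups, beside 34.4% of all tested genes. Cyp2j5 (chr4:96628773-96664154, minus strand), abundant in liver and kidney, had 150, 161 and 156 FPKM with diet and 105 and 109 with dabigatran. The libraries of each group were close together and diet replicate 1 was the highest of all, unlike in most members. The log2 difference was -0.54 (SE 0.16, 1.46-fold lower, adjusted p = 0.162). Its windows are nearly unique, with 0.174% shared. Cyp2j6 (-0.22) and Cyp2j9 (0.16) overlapped, Cyp2j9 with -0.080 without diet replicate 2. Cyp2j8 was below 1 FPKM, and Cyp2j11, Cyp2j12 and Cyp2j13 were listed at 0. The subfamily sum was 180, 190 and 186 FPKM with diet and 130 and 137 with dabigatran, a log2 ratio of -0.47 that ranged from -0.51 to -0.43 when any 1 library was left out.

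The conserved single genes with named substrates were low. Cyp2r1, the main vitamin D 25-hydroxylase of the liver, had 5.57, 2.93 and 6.05 FPKM with diet and 2.92 and 2.89 with dabigatran. Diet replicate 1 and the dabigatran libraries were nearly equal, resting on 8, 9 and 8 fragments, and the log2 difference was -0.60 (adjusted p = 0.411). Cyp2u1, a fatty acid omega-hydroxylase, had 6.88, 4.64 and 4.998 against 1.95 and 4.09, a log2 difference of -0.82 (adjusted p = 0.276). It did not overlap, and the difference was -0.37 without dabigatran replicate 1, while 9.55% of its windows lie in another gene, 4930534D22Rik. Cyp2g1, an enzyme of the nasal lining, and Cyp2s1, Cyp2t4 and Cyp2w1 were at 0.638 FPKM or below in all libraries.

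Of the 5 electron donors and partners of these enzymes, none was called. Wholly above the diet libraries lay 1 and wholly below 3, beside 17.2% of all tested genes each way. P450 oxidoreductase (Por), which hands electrons to every microsomal P450, had 71.4, 74.9 and 70.8 FPKM with diet and 145 and 293 with dabigatran. The diet libraries were nearly equal and both dabigatran libraries were above them, with a log2 difference of 1.51 (adjusted p = 0.0674). Without dabigatran replicate 1 it was 2.01, which rests on dabigatran replicate 2 alone, and without dabigatran replicate 2 it was below 1.51. The other 4 had differences below 0, with overlapping groups in Cyb5r3. Cytochrome b5 (listed as Cyb5, the older symbol of Cyb5a) had -0.44 (adjusted p = 0.293), its outer mitochondrial form Cyb5b -1.002 (adjusted p = 0.0844), cytochrome b5 reductase (Cyb5r3) -0.66 (adjusted p = 0.309) and Pgrmc1, a haem protein that binds P450 enzymes, -0.93 (adjusted p = 0.0902). Cyb5b and Pgrmc1 were called lower without diet replicate 1. Alas1, the rate-limiting enzyme of haem synthesis, had 0.69 (adjusted p = 0.259).

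**Figure D5:**
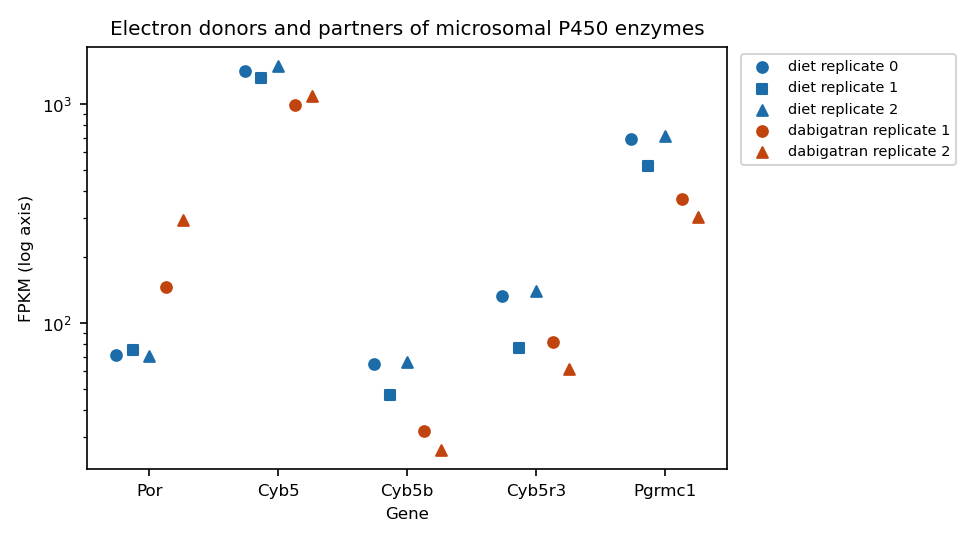
FPKM (log axis) of the 5 electron donors and partners of microsomal P450 enzymes in each library. Por lies higher in both dabigatran libraries (145 and 293 FPKM) than in the diet libraries (70.8 to 74.9), while Cyb5, Cyb5b and Pgrmc1 lie lower.

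Of 23 tested receptors and factors that control Cyp1 and Cyp2 genes, none was called, and the median log2 difference was -0.00. Dbp, the clock output factor that acts through the D-box, had 12.1, 4.59 and 10.0 FPKM with diet and 1.253 and 1.74 with dabigatran (-2.14, adjusted p = 0.0674). Diet replicate 1 again lay between the groups. The receptors differed less: Ahr had 0.68 (adjusted p = 0.175), CAR (Nr1i3) 0.27 (adjusted p = 0.512), PXR (Nr1i2) 0.15 (adjusted p = 0.744), their partner Rxra 0.48 (adjusted p = 0.240) and Hnf4a 0.69 (adjusted p = 0.243). None of the 6 tested AhR targets outside Cyp1 was called, and all 6 lay lower, with a median of -0.34. Of 18 tested CAR and PXR targets outside Cyp2, only the organic anion transporter Slco1a4 was called. It rose from 6.11, 5.16 and 4.40 FPKM to 15.4 and 17.8 (adjusted p = 0.0404). The median of that list was -0.57, with Cyp3a11, the main inducible Cyp3a enzyme, at 1206, 468 and 1511 FPKM with diet and 123 and 358 with dabigatran (-2.17, adjusted p = 0.129). The 4 tested Cyp3 genes had a median of -0.56 and the 13 tested Cyp4 genes of 0.05, with no call in either family.

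Markers of sex and of other cells were read beside these values. All libraries held Y-linked transcripts, with Eif2s3y at 21.5 to 27.8 FPKM, and Xist was at 0.0430 FPKM or below; these genes were added after the values were seen. Of the female-biased members, Cyp2a4 and Cyp2b13 were listed at 0 everywhere and Cyp2b9 in both dabigatran libraries, while Cyp2c40 and Cyp2c69 had their highest values there. Among 13 female-biased genes outside Cyp2, 5 were tested, of which 4 lay higher and 1 lower. Called higher were 3, Cyp17a1, Cyp39a1 and Slco1a4 (each with an adjusted p of 0.0404), beside 0.127% of all tested genes. The 1 that lay lower was Acot3 (-1.60, adjusted p = 0.267), named after its value was seen. Listed at 0 in all libraries were 4, Sult2a1 and Sult2a2 among them. Slco1a4, Cyp17a1, Cyp39a1, Sds and Sdsl were the 5 genes of the pathway lists called higher, and none of the 5 was called without the filter on low values or the variance trend. Of 14 tested male-biased genes none was called, with a median of 0.38. Hepatocyte markers had no call among 10 and a median of 0.64, with sums from 33741 to 36527 FPKM with diet and 38112 and 51383 with dabigatran. Kupffer cell markers (0 of 10 called, -0.09), endothelial markers (0 of 8, 0.32), stellate cell markers (0 of 7, -0.20), cholangiocyte markers (0 of 2, -0.51) and the 1 tested lymphocyte marker (-0.38) gave no call. Of the adipocyte markers Cfd was called lower, from 28.3 to 150 FPKM with diet to 0 in both dabigatran libraries, while Fabp4 had 29.3, 15.6 and 31.2 FPKM with diet and 16.0 and 34.3 with dabigatran (-0.05, adjusted p = 0.965), Adipoq was at 0.320 FPKM or below and Plin1 and Lep were listed at 0. The part of these genes in the values of the P450 members was not tested.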

How the data were processed

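Total RNA from frozen mouse liver was sequenced after a TruSeq library preparation, per the labels' protocols. The authors deposited FPKM, 1 value per gene symbol, per the file headers. The submitters' processing notes name TopHat2 2.0.4 and Cuffdiff beside CASAVA, TopHat and R 2.15.1, and the builds mm10 and GRCm38, without a role. For the annotation, strand use, scaling and fragments that match several genes, the handling was not given in the sources used here. Dabigatran replicates 0 and 1 were identical and counted once.

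Genes that reached 1 FPKM in 3 or more of the 5 libraries were tested as log2(FPKM + 0.5), a scale that understates changes of low genes, with limma 3.58.1 in R 4.3.3 (variance trend, two-sided, Benjamini-Hochberg over 10247 genes, threshold 0.05). The members and gene lists were chosen with earlier results of these data known. Members were named by subfamily, up to 4 by unadjusted p and up to 4 by mean level, together with 13 fixed members, and of each other list up to 4 genes by p with a few fixed ones. Members outside that rule, such as Cyp2c67, Cyp2c68 and Cyp2c69, were named after their values were seen. One listed gene is not reported here. The test was run on simulated data, where 5.47% of calls were false. The simulated errors were independent and drawn from the spread that limma itself fitted. A rate near the threshold was thus built in, and the simulation does not cover genes that shift together in a library. Relative depth came from the steps of values under 0.3 FPKM (relative tolerance 2e-05), and fragments are the smallest set of whole numbers with the ratio of the values, found for 25 members, which true numbers may exceed by a common factor. Shared sequence was counted over 50-base windows of GENCODE M21 transcripts (50 members matched), on either strand. Promoters are RefSeq's (43 members matched).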

Additional observations from a re-analysis of the deposited data

How the results depend on the processing

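No member was called under another pseudocount, filter, scaling or variance model, or with the replicate block. With any 1 library left out, members called higher ranged from 0 to 2 and lower from 0 to 6, those wholly above the diet group from 3 to 11 (5 with no filter on low values) and those wholly below from 10 to 16. The 11 arose without dabigatran replicate 1, where 34.4% of all tested genes lay wholly above, and the 16 without dabigatran replicate 2, where 28.9% lay wholly below. The deviations of same-numbered libraries from their group means had correlations of -0.04 and -0.03. With only 2 dabigatran libraries, each diet library has the same correlation with both, of opposite sign. These values therefore cannot settle whether the replicate numbers pair the libraries. With the replicate block the members' median was -0.19, and 1 other pathway gene was called higher and 1 lower, the latter Cyp3a11 (-2.00), against 5 and 0 without the block. Those 5 became 0 with no filter and 0 with no variance trend, and left-out libraries gave 0 to 18 higher and 0 to 14 lower.

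Over all genes, 13 were called higher and 31 lower. This became 6 and 17 with a pseudocount of 0.1, 5 and 8 with the block, 0 and 0 with no filter or no variance trend, and 0 to 95 and 0 to 199 with a library left out. The log2 ratio of the Cyp2c sum ranged from -0.46 to 0.20 and that of all members from -0.12 to 0.16 over left-out libraries. Over left-out libraries the sign turned for Cyp1a2 (-0.16 to 0.32), Cyp2c37 (-0.31 to 0.61), Cyp2c54 (-0.25 to 0.34), Cyp2c67 (-0.35 to 0.84), Cyp2d10 (-0.024 to 0.33), Cyp2d22 (-0.090 to 0.21), Cyp2j9 (-0.080 to 0.40), Glul (-0.38 to 0.067) and Alb (-0.13 to 0.43), and for Cyp2e1 by quantile normalization (-0.050). The cause was not tested. Depth limits Cyp2b10, Cyp2c40, Cyp2c69, Cyp2a22 and Cyp2r1, which rest on few fragments in some libraries.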
